A study of Mus musculus with 4 samples.

Results

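The open regions described here are those of 10 core circadian clock genes, Clock, Per1, Per2, Per3, Cry1, Cry2, Nr1d1, Nr1d2, Rora and Dbp, in hair follicle stem cells of mice with and without the transcription factors NFIB and NFIX. A region was counted for a gene where the summit of an ATAC-seq peak lay in the body of that protein-coding gene, or nearer to it than to any other within 100 kb. A WT and a dKO peak with 1 bp or more in common made 1 region. This gave 69 regions of the 79122 in the series, of which 70899 were assigned to a gene. ATAC-seq marks open chromatin by the sites at which a transposase inserts sequencing adapters.

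Male mice gave the cells, from back skin, at day 70 after birth, when follicles rest in second telogen. WT mice, numbers 13 and 15, were NFIBfl/fl;NFIXfl/fl;R26-YFPfl/fl without Cre, and dKO mice, numbers 14 and 16, carried Sox9-CreER in addition, so all 4 mice had the floxed alleles and the reporter. Sox9-CreER is active in Sox9-expressing cells, and the induction of Cre and the hour of the day at which cells were taken are not stated in the labels. Both gates took DAPI-negative, Sca-1-negative cells positive for integrin alpha 6 and CD34, and the dKO gate also asked for YFP. There was 1 deposited peak list per genotype, so no value has a spread between mice, no genotype difference could be tested, and each interval is a 95% interval of counting error.

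The clock is a feedback loop of transcription. CLOCK pairs with BMAL1 (gene Arntl) on E-box sequences and drives Per and Cry genes, whose proteins enter the nucleus and repress the pair. The nuclear receptors REV-ERB (Nr1d1, Nr1d2) repress and ROR factors (Rora) activate Arntl through a shared response element, and DBP drives genes with D-boxes. Hair follicle stem cells have a running clock, and mice with clock mutations are known to have altered timing of the hair cycle.

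The regulatory letters of this loop could be read in the 250 bases before 12 RefSeq starts of 9 of the genes (GRCm38.p6). The E-box CACGTG was found before Per1 and Cry1 starts, and the D-box TTATGTAA or TTATGCAA before Per1 and Per3 starts. These are shown because an open region spanned each of these starts in both genotypes, with E-boxes and D-boxes in capitals, each read 5′ to 3′ on the strand of the gene and ending 1 base before the start.
Per1 (chr11:69098699-69098948, plus strand): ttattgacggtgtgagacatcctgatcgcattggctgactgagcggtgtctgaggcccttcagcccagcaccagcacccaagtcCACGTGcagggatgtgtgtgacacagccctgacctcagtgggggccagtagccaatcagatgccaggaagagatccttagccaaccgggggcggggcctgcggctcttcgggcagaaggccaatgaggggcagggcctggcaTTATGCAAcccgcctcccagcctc
Cry1 (chr10:85185055-85185304, minus strand): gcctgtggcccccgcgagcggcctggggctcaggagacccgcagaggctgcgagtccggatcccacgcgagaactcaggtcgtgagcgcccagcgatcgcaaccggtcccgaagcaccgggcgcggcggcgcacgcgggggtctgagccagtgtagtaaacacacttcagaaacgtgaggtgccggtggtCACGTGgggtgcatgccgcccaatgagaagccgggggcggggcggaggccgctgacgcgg
Per3 (chr4:151044666-151044915, minus strand): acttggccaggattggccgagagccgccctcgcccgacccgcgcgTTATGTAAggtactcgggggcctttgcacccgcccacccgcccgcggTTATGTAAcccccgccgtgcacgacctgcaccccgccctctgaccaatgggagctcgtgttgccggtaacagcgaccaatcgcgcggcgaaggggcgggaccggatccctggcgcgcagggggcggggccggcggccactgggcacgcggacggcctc
Counted from the start, the Per1 window had its E-box at -166 to -161 and its D-box at -24 to -17, the Cry1 window an E-box at -60 to -55, and the Per3 window D-boxes at -205 to -198 and -158 to -151. Of 32817 windows of the same length before all RefSeq starts, 6.02% held the E-box and 1.5% a D-box on either strand. The ROR element TAGGTCA or TGGGTCA (5.39% of all windows), the NFI palindrome of TTGGC and GCCAA with 5 bases between (0.0366%) and the shorter NFI site TTGGCA (12.3%), which can be a part of the longer one, were in 0 of the 12 clock gene windows. Such letters describe the sequence and do not show that a factor was bound.

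Clock gene regions were mostly found in both genotypes. Both lists held 42 of the 69 regions (60.9%, Wilson interval 49.1 to 71.5). The WT list alone held 19 (27.5%, interval 18.4 to 39.05), here called WT-only, and the dKO list alone held 8 (11.6%, interval 5.99 to 21.3), called dKO-only. Over all regions assigned to a gene, 21.2% were WT-only and 12.8% were dKO-only, and both values lie inside the intervals of the clock genes. Rora alone held 33 of the 69 regions, and without it the remaining 36 regions were 7 WT-only (19.4%, 9.75 to 35.03), 4 dKO-only and 25 shared. Clock, Nr1d1 and Dbp had shared regions only, 2 each. The 10 regions with a summit within 1 kb of a gene end were 9 shared and 1 WT-only. Gene bodies held 31 of the 42 shared, 17 of the 19 WT-only and 7 of the 8 dKO-only regions. Of those in gene bodies, 12 WT-only and 4 dKO-only regions were in Rora. The places of all assigned regions are not given here for comparison. Lists of this depth cannot show that a region without a peak was closed.

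**Figure D1:**
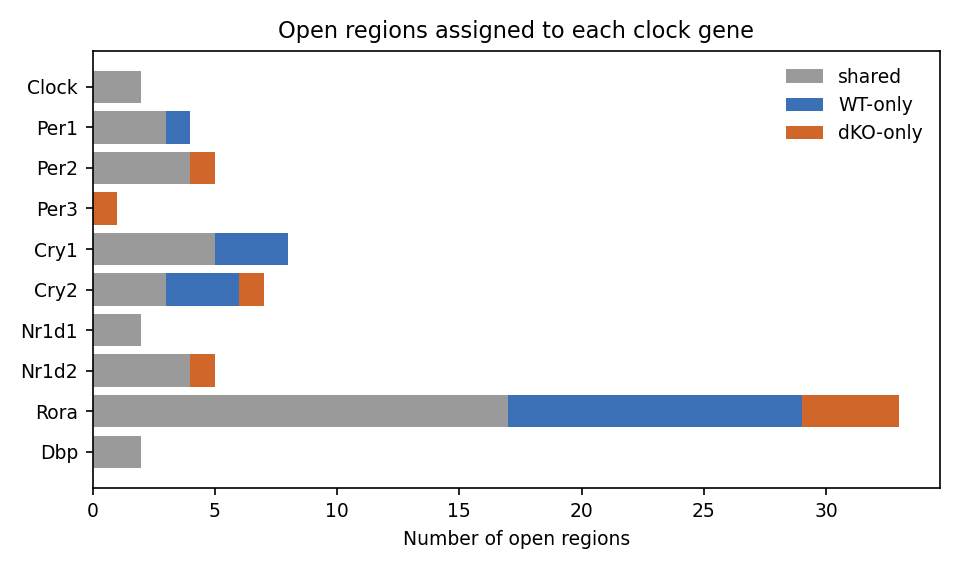
Number of open regions assigned to each of the 10 clock genes (x axis), split into regions found in both lists (grey), in the WT list only (blue) and in the dKO list only (orange). Rora has 33 regions, and no other gene has more than the 8 of Cry1.

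To compare heights, the summit pileup, which is the number of reads or fragments over the summit, was divided by the median of its list, 73 in WT and 38 in dKO. A ratio is the scaled dKO pileup over the scaled WT pileup, with an exact (Clopper-Pearson) interval. The median ratio of the 42 shared clock gene regions was 0.854, beside 0.899 over all 46759 shared regions assigned to a gene. A 2-fold lower value in dKO was found in 4 of the 42 (9.52%, against 8.79% of all) and a 2-fold higher value in 3 (7.14%, against 6.34% of all). All 4 lower ones belonged to Rora. The direction of many ratios depends on the measure, since the deposited fold enrichment divides each pileup by its local background. By fold enrichment the median over all shared regions was 1.05, and 13 of the 26 clock gene regions with a pileup ratio below 1 had a ratio above 1, as had 41.2% of such regions over all genes. The starts of Per1, Cry1, Nr1d1, Clock and Dbp were among them, with fold enrichment ratios of 1.05, 1.27, 1.135, 1.24 and 1.025. The interval lay wholly below 1 in 16 regions, wholly above 1 in 6 and held 1 in 20. The median over all shared regions was itself below 1, at 0.899. The same counts over all shared regions are not given here, so these are not read as a result about clock genes.

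Ratios moved with the WT pileup over the whole series. When all shared regions were put into 10 classes by WT pileup, the median ratio was 1.57 in the weakest class (pileup 14 to 30). It was 0.791 to 0.846 in the 3 strongest, with pileups of 198 or more. A shared region needs a peak in both lists, and the lowest pileup of a peak was 14 in WT and 9 in dKO. A 2-fold lower ratio could therefore not occur in the weakest class, where 0% were 2-fold lower and 31.0% 2-fold higher.

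**Figure D2:**
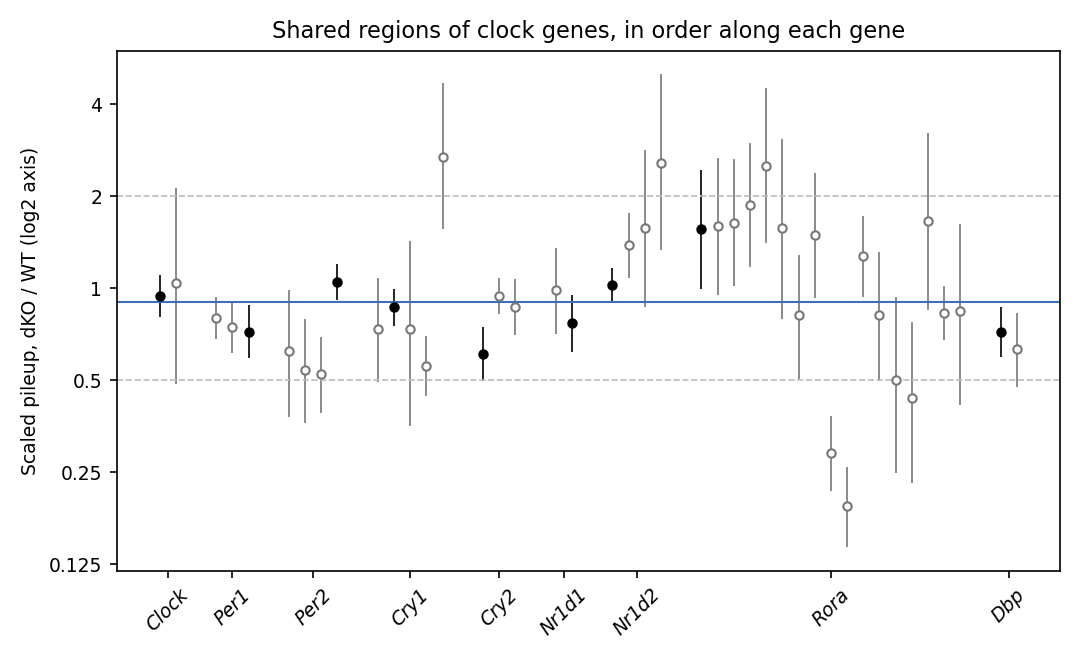
Ratio of scaled pileup, dKO over WT, on a log2 axis, for the 42 shared regions in order along each gene, with 95% counting intervals. Filled points are regions at gene starts (for Per2 the upper end of the gene body), the blue line is the median of all shared regions (0.899) and dashed lines mark 2-fold. The lowest points are a pair of Rora regions at 0.290 and 0.194.

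At the starts, the clock genes had open regions in both lists. Scaled pileup in WT was highest at Nr1d2 (9.99), then Cry1 (8.74), Per2 (8.26), Clock (6.48), Dbp (5.67), Cry2 (5.56), Per1 (5.07), Nr1d1 (4.27), Per3 (2.88) and Rora (0.658). In dKO the order was Nr1d2 (10.2), Per2 (8.66), Cry1 (7.58), Clock (6.13), Dbp (4.08), Per1 (3.66), Cry2 (3.40), Nr1d1 (3.29), Per3 (2.24) and Rora (1.03). Neighbours whose counting intervals did not overlap were Per2 and Clock, Nr1d1 and Per3, and Per3 and Rora in WT, and in dKO Clock and Dbp, and Per3 and Rora. Over all shared regions that spanned a RefSeq start the median ratio was 0.9005, and 1.57% were 2-fold lower and 2.03% 2-fold higher in dKO. None of the 10 clock gene starts passed 2-fold either way, and each had a peak in both lists, where 3.86% of all regions spanning a RefSeq start were found in a single list.

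**Figure D3:**
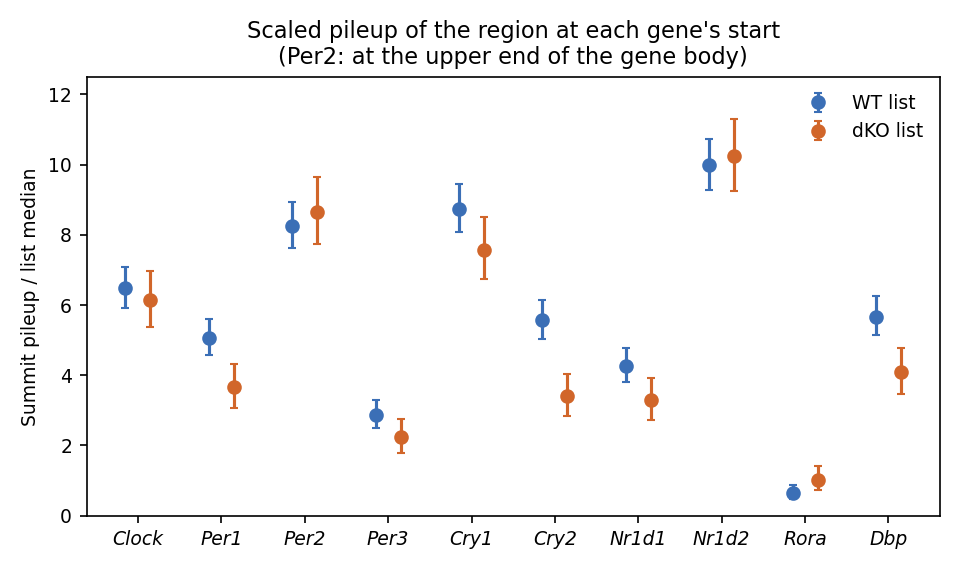
Scaled summit pileup (pileup over the list median) of the region at the start of each clock gene in the WT list (blue) and the dKO list (orange), with exact Poisson 95% intervals. Nr1d2 is highest at 9.99 and 10.2, and Rora lowest at 0.658 and 1.03.

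Clock, on chromosome 5 (76209868 to 76305603, mm10), encodes the activator that pairs with BMAL1. Its start region (76303433 to 76305351) spanned all 3 RefSeq starts and had a pileup of 473 in WT and 233 in dKO, a ratio of 0.946 (0.805 to 1.11). A weak region inside the gene, 13949 bp downstream of a start, had 24 and 13. The interval at the Clock start holds 1 and allows a ratio as low as 0.805.

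Among the repressor genes, Per1, Per2, Per3, Cry1 and Cry2 held 25 regions, 15 shared, 7 WT-only and 3 dKO-only. Per1 (chromosome 11, 69095108 to 69109965) had 3 shared regions in a row at its RefSeq starts and before them. The first had its summit 194 bp outside the lower end of the gene body, and the second lay inside the body. The pileups of the 3 regions were 530, 370 and 370 in WT and 221, 144 and 139 in dKO. Their ratios were 0.801 (0.682 to 0.939), 0.748 (0.612 to 0.909) and 0.722 (0.590 to 0.879). The last of these (69098497 to 69100396) spanned both RefSeq starts and the E-box shown above. Its scaled pileups of 5.07 in WT and 3.66 in dKO were below the 7.26 and 5.82 of the first. All 3 were lower in dKO by pileup, by less than 2-fold, and 35.7% to 40.4% of shared regions of their classes of WT pileup had a ratio as low or lower. By fold enrichment the ratios were 1.14, 1.11 and 1.05, above 1. Their local background, derived from the deposited fold enrichment, was also high in both lists, at 112 to 122 in WT and 40.3 to 42.3 in dKO. The lowest local background of a list was 5.29 in WT and 2.73 in dKO.

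Past the end of Per1, a WT-only region (69110482 to 69112399), 2131 bp from the gene body, had a WT pileup of 132 and a deposited fold enrichment of 7.12. Its deposited −log10 q of 65.5 was above 66.2% of the WT list, the highest such rank among the 19 WT-only regions. The nearest dKO summit lay 6044 bp away.

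Per2 (chromosome 1, 91415977 to 91459351) encodes a repressor that limits CLOCK and BMAL1. The region at the upper end of its gene body (91457892 to 91460075) had 603 in WT and 329 in dKO, a ratio of 1.05 (0.914 to 1.20). The 3 shared regions inside the gene were lower in dKO. Their pileups were 235 and 64 (91444821 to 91446783), 124 and 35 (91436263 to 91437216) and 77 and 25 (91428603 to 91429064). The ratios were 0.523 (0.391 to 0.692), 0.542 (0.362 to 0.795) and 0.624 (0.381 to 0.991), and the first and second of these intervals lie below that of the gene-end region, while the last overlaps it. Within the same classes of WT pileup 17.2%, 17.9% and 24.7% of all shared regions had a ratio as low or lower. By fold enrichment the 3 ratios inside the gene were 0.926, 0.7095 and 0.562, and the gene-end region had 1.21. A dKO-only region (91437689 to 91437946) had a dKO pileup of 14.

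Per3 (chromosome 4, 150997018 to 151044707), the least studied of the Per repressors, had 1 region by the rule. That region (150973340 to 150973593) was dKO-only, weak at a pileup of 11, and lay 23533 bp outside the gene. The region that spanned the Per3 start and the D-boxes above (151043569 to 151045587) was shared but had its summit in the neighbouring predicted gene Gm38529, so the rule gave it to that gene. Its pileup was 210 in WT and 85 in dKO, a ratio of 0.778 (0.597 to 1.005), and 1.21 by fold enrichment. A peak at the Per3 start was thus in both lists, while the single region counted for the gene was in the dKO list alone.

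Cry1 (chromosome 10, 85131700 to 85185054) encodes a strong repressor of CLOCK and BMAL1. Its start region (85183577 to 85185996) had 638 in WT and 288 in dKO, a ratio of 0.867 (0.752 to 0.998). Exons and introns were not analysed here. The next strongest region lay inside the gene, 23071 bp downstream of the start (85161235 to 85163140), with 351 and 102 and a ratio of 0.558 (0.443 to 0.698), where fold enrichment gave 1.055. The 3 WT-only regions, also inside the gene, were weak, with WT pileups of 28 to 31. A weak region near the far end (85140495 to 85141350) went the other way, with 25 in WT and 35 in dKO, a ratio of 2.69 (1.56 to 4.69), where 31.0% of all shared regions of that WT pileup were 2-fold higher. Cry1 also had the region farthest from its gene body, at 36084 bp, with 99 and 38 reads or fragments. Beyond the 100 kb limit 1 region had a clock gene as its nearest gene, 322.5 kb from Rora, with pileups of 24 in WT and 16 in dKO.

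Cry2 (chromosome 2, 92403646 to 92434085), the second cryptochrome, had the lowest ratio of the starts. Its start region (92433609 to 92435469) had 406 in WT and 129 in dKO, a ratio of 0.610 (0.497 to 0.746). A stronger region 6056 bp downstream (92427239 to 92428509) had 665 and 327, a ratio of 0.945 (0.825 to 1.08), and the intervals of these ratios did not overlap. By fold enrichment the ratios were 0.956 at the start and 1.32 at the stronger region. In the same stretch a WT-only region (92426370 to 92426972) with a pileup of 304 and a fold enrichment of only 2.89 lay 1372 bp from the nearest dKO summit, and a dKO-only region (92425052 to 92425372) with 72 and 2.00 lay 1219 bp from the nearest WT summit. Local background was high there, at 104.5 for the WT-only and 35.5 for the dKO-only region. The other WT-only regions lay at the far end of Cry2, with pileups of 27 and 52.

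The nuclear receptor genes, Nr1d1, Nr1d2 and Rora, held 40 regions, 23 shared, 12 WT-only and 5 dKO-only. Nr1d1 (chromosome 11, 98767932 to 98775377), encoding the repressor REV-ERB alpha, had its start region (98772686 to 98776045) at 312 in WT and 125 in dKO, a ratio of 0.770 (0.620 to 0.9501). An upstream region 8110 bp from the start had 117 and 60, a ratio of 0.985 (0.709 to 1.36). Nr1d2 (chromosome 14, 18204056 to 18239106), encoding REV-ERB beta, was the clock gene with the most open start (18238016 to 18239722), at 729 and 389 and a ratio of 1.03 (0.904 to 1.16).

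All 4 shared regions of Nr1d2 had a ratio above 1. Over all 46759 shared regions assigned to a gene 18215 had a ratio above 1 and 28544 had one below 1. The region 4956 bp downstream of the start (18233875 to 18234482) had 160 in WT and 115 in dKO, a ratio of 1.38 (1.08 to 1.77), and 92.8% of shared regions in its class of WT pileup had a ratio as high or lower. The weaker regions, at 28 and 23 and at 18 and 24, had ratios of 1.58 and 2.56, in a class where the median was 1.57. A dKO-only region (18226223 to 18226586) had a pileup of 16.

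Rora (chromosome 9, 68653404 to 69388246), encoding the activator ROR alpha, is a gene of 735 kb and held most of the single-list regions, 12 WT-only (36.4% of its 33, 22.2 to 53.4) and 4 dKO-only (12.1%, 4.82 to 27.3), beside 17 shared. The interval of the WT-only share begins above the 21.2% of all assigned regions. It covers counting error only, takes neighbouring regions of 1 gene as independent, and is not a test. The net count of Rora, WT-only less dKO-only, was 8. Of the 15905 genes with a region, 81 had a net count as high or higher. Rora had 1 RefSeq start here, and any other start of the gene was not examined. The region at this start was the weakest of those at the clock gene starts, with 48 in WT and 39 in dKO (68653376 to 68654018). Its ratio was 1.56 (0.996 to 2.43). Far inside the gene stood 3 strong regions. In WT they had pileups of 391 (69038350 to 69039450), 494 (69053702 to 69055839) and 314 (69289100 to 69291190), at 385152, 401290 and 636059 bp from the start.

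In dKO the first of these had a pileup of 59 and the next a pileup of 50, which gives ratios of 0.290 (0.217 to 0.382) and 0.194 (0.142 to 0.260), or values 3.45-fold and 5.14-fold lower in dKO. Of the 51129 shared regions of the series 2.04% and 0.643% had ratios this low or lower. Within the same classes of WT pileup these shares were 4.05% and 0.943%. The third strong region had 136 in dKO, a ratio of 0.832 (0.675 to 1.02). The intervals of the first and second lie below that of the third, which holds its class median of 0.8025. The local background of the first and second, derived from the fold enrichment, was lower in dKO as well. Without scaling it was 27.8 against 4.63 at the first and 55.0 against 5.41 at the second, where the list medians of pileup were 73 and 38. Whether the reads of a peak enter its own local background is not given, so fold enrichment is not a separate check of the pileup. Fold enrichment was 13.6 and 10.7 at the first and 8.85 and 7.96 at the second, ratios of 0.783 and 0.8999, which are not 2-fold lower.

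**Figure D4:**
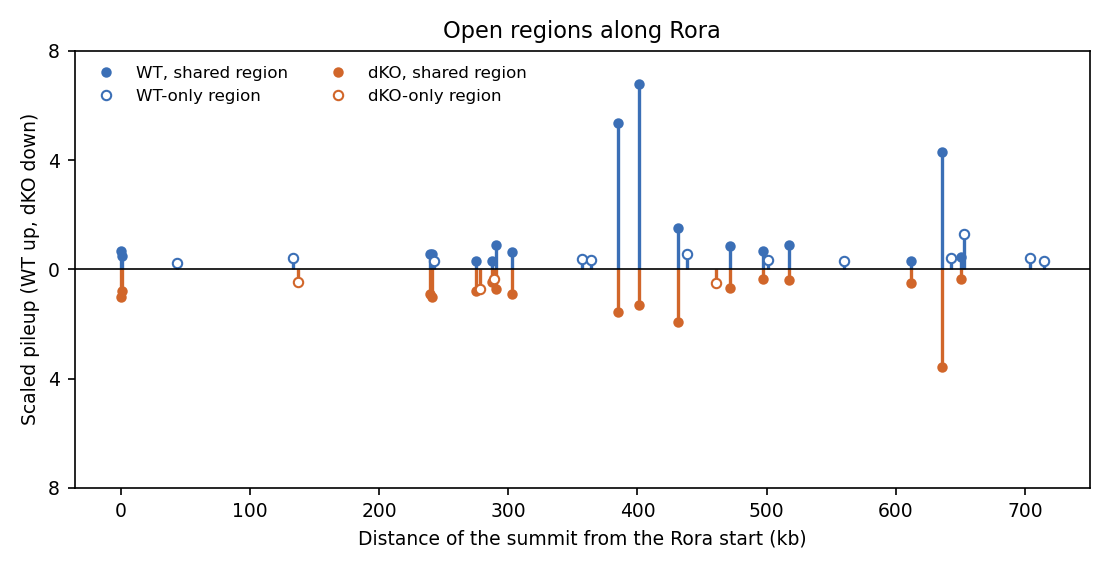
Scaled summit pileup of the 33 Rora regions against distance from the RefSeq start in kb, with WT drawn upward and dKO downward. Filled points are shared regions and open points are regions of 1 list. The tallest WT values, 5.36 and 6.77, stand opposite dKO values of 1.55 and 1.32.

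The other 14 shared Rora regions had WT pileups of 22 to 66, except 1 with 110 in WT and 73 in dKO (69084395 to 69085611, ratio 1.275). In the 350 kb after the start 7 of 8 shared regions had a ratio above 1, up to 2.51, and 7 of 8 were also above the median of their class of WT pileup. From 350 to 550 kb 5 of 6 were below 1, among them the pair of strong regions. Among the weaker ones were regions with 50 and 13 (69150388 to 69151363, ratio 0.4995) and 66 and 15 (69171192 to 69171774, ratio 0.437). By fold enrichment the ratios of these were 0.495 and 0.403. Beyond 550 kb lay 3 shared and 5 WT-only regions, and 0 from the dKO list alone. These bounds were chosen after the values were seen. Over all 46759 shared regions assigned to a gene 28544 had a ratio below 1. The WT-only regions of Rora had pileups of 18 to 41, except 1 at 94 (69306459 to 69307150), and its dKO-only regions had 14 to 27.

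**Figure D5:**
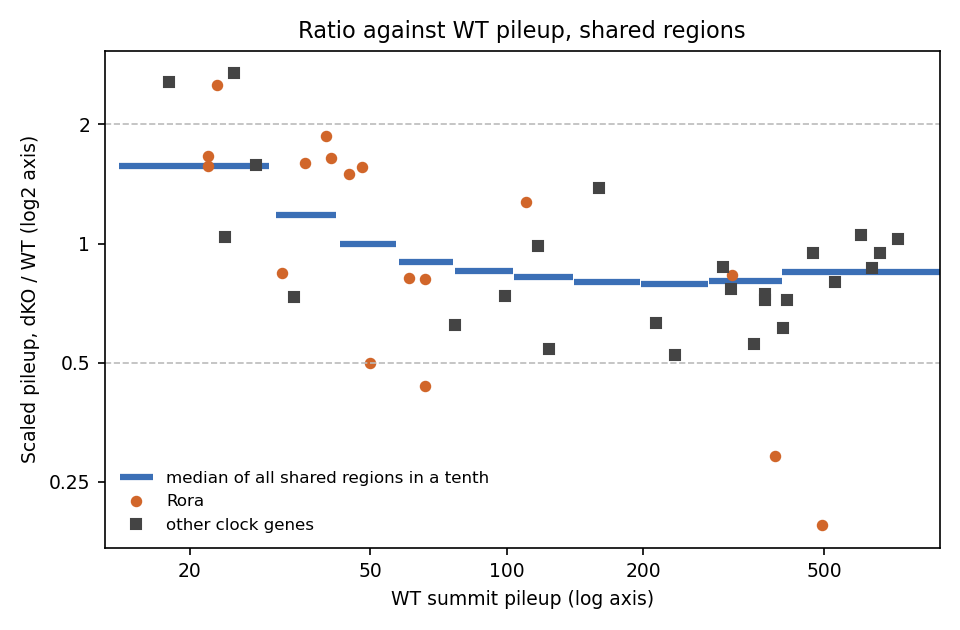
Ratio of scaled pileup, dKO over WT (log2 axis), against WT summit pileup (log axis) for shared regions of Rora (orange) and of the other clock genes (dark squares). Blue bars are medians of all shared regions in 10 classes of WT pileup (the last bar runs on past the right edge), from 1.57 in the weakest class, and dashed lines mark 2-fold.

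Dbp (chromosome 7, 45705100 to 45710203), an output gene whose protein binds D-boxes, had 2 shared regions. The start region (45704079 to 45706133) had 414 in WT and 155 in dKO, a ratio of 0.719 (0.594 to 0.867). The region inside the gene, 2408 bp downstream (45706592 to 45708310), had 213 and 70, a ratio of 0.631 (0.475 to 0.831). Both were lower in dKO by pileup, by less than 2-fold, while fold enrichment gave ratios of 1.025 and 0.896.

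Further clock-related genes, a list of 25 chosen by function, held 181 regions, 118 shared, 44 WT-only (24.3%, 18.6 to 31.05) and 19 dKO-only (10.5%, 6.82 to 15.8). WT-only regions outnumbered dKO-only regions at 12 of the 25 genes, and the reverse held at 6. The same comparison over all genes is not given here, so it is not read as a result about these genes. Over all assigned regions the WT-only and dKO-only shares were 21.2% and 12.8%, each inside its interval. Among the shared regions 16 (13.6%, against 8.79% of all) were 2-fold lower and 8 (6.78%, against 6.34% of all) 2-fold higher in dKO, and their median ratio was 0.817, beside 0.899 over all. By fold enrichment 2 of the 16, at Bhlhe40 (0.379) and Nampt (0.423), and 0 of the 8 remained 2-fold different, and the median was 1.045 (1.05 over all). The lower regions came from 7 genes. Npas2 (6 WT-only, 2 dKO-only, 12 shared), the paralog of Clock, had 4 neighbouring ones inside the gene, 32372 to 43556 bp from a start. Their WT pileups were 170, 496, 288 and 181 and their dKO pileups 24, 53, 66 and 21, with ratios of 0.271, 0.205, 0.440 and 0.223. By fold enrichment these ratios were 1.14, 0.920, 1.004 and 0.519, and none was 2-fold lower. Its remaining region past 2-fold, upstream of the start, was weak, at 20 and 21, in the class of WT pileup with a median ratio of 1.57.

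Arntl, which encodes BMAL1, had 14 shared and 6 WT-only regions, with 0 in the dKO list alone. Its 2-fold lower regions had 221 and 51 (113150212 to 113151929 on chromosome 7) and 108 and 28, and its 2-fold higher one 34 and 40. Only the region with 108 and 28 lay inside the gene. The region with 221 and 51 lay 26779 bp outside the gene body and spanned a RefSeq start, whose gene is not given here. The region with 34 and 40 lay 40627 bp outside. By fold enrichment the ratios were 1, 0.713 and 1.79 in the order listed, and none was 2-fold different. Usp2, encoding a deubiquitinase that acts on clock proteins, had 7 shared regions, all with a ratio below 1. Over all 46759 shared regions assigned to a gene 28544 had a ratio below 1. Of the Usp2 regions 3 neighbouring ones inside the gene were 2-fold lower, at 267 and 69, 270 and 55, and 263 and 63. By fold enrichment the direction of these 3 turned, with ratios of 1.38, 1.03 and 1.10. Csnk1d, encoding a casein kinase that phosphorylates PER proteins, had 2 lower regions (128 and 19, 135 and 30), the latter 14434 bp outside the gene body. Fbxw11, which encodes a ubiquitin ligase subunit that acts on PER proteins, also had 2 (92 and 17, 62 and 16). Nampt, encoding an enzyme of NAD synthesis, had 2 lower (83 and 15, 213 and 39) and 1 higher region (37 and 44). These lay 59999, 54222 and 91679 bp outside the gene body. Bhlhe40, encoding the repressor DEC1, had 1 lower region (96 and 20), 41546 bp outside the gene body, beside 2 WT-only and 3 dKO-only ones.

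Nfil3, encoding a repressor at D-boxes, had the highest ratio of these genes, 3.94 (2.68 to 5.87), at a region 28405 bp downstream of its start with 41 in WT and 84 in dKO (52952086 to 52952990 on chromosome 13). It also had 2 dKO-only and 0 WT-only regions. Rorb had a higher start region (37 and 39), 1 WT-only and 2 dKO-only regions, and single higher regions were found at Cipc (25 and 28), Btrc (14 and 16) and Gsk3b (20 and 21), all weak in WT. The regions of Cipc, Btrc and Gsk3b belong to the class of WT pileup in which the median ratio was 1.57 and 31.0% were 2-fold higher. Those of Rorb, Nfil3, Arntl and Nampt belong to the next, with a median of 1.18 and 16.4% 2-fold higher. Single-list regions alone numbered 5 WT-only and 1 dKO-only at Hlf, 5 and 0 at Fbxw11, 3 and 0 at Tef, 3 and 1 at Csnk1e, 2 and 2 at Gsk3b, 2 and 0 at Arntl2 and at Sirt1, 1 and 1 at Cipc, and 1 and 2 at Prkaa1.

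In the counts of the 3 classes Rora was most like Jazf1, with 11 WT-only, 4 dKO-only and 18 shared regions, a summed difference of 2. The next were Xylt1 (12, 6 and 18), Rybp (13, 2 and 17) and Sorbs2 (11, 3 and 18), each at 3, and Shb (11, 4 and 20) at 4. The likeness is over 1 list per genotype, and 152 of 15905 genes with a region had as many regions as Rora or more, Rora included.

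The lists held 68197 WT and 63548 dKO peaks, and their lowest local background was 5.29 and 2.73, a ratio of 1.94 that is close to the 1.92 between the median pileups. Of 8 marker genes of hair follicle stem cells, all except Nfatc1 had a peak within 1 kb of a gene end in both lists, with summed scaled pileups of 28.5 in WT and 26.7 in dKO. Among markers of other skin cells this held for 1 of 4 melanocyte genes (Pmel, summed 9.15 and 8.61), 2 of 4 fibroblast genes (Col1a1 and Col1a2, 3.67 and 2.42) and 2 of 4 endothelial genes (Kdr and Tek, 1.77 and 1.18). Of 4 immune genes 1 had a peak in WT (Cd74, 0.329) and 0 had one in dKO. The part of other cells in the clock gene values was not tested, and depth, mouse and sort gate cannot be told apart from genotype.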

How the data were processed

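ATAC-seq of sorted hair follicle stem cells was deposited as 1 peak list per genotype, each tied by the labels to both mice of that genotype. Bowtie2 2.2.9, Picard and MACS2 and the builds mm10 and GRCm38 are named in the submitters' processing notes, with no role or order. How mice were combined, reads shifted or duplicates treated is not given in the sources used here. Per the file headers, 1 deposited column is the pileup, a signal at the summit, and its values are whole numbers. Fold enrichment, a ratio deposited by the authors, was read as pileup over local background with 1 added to each, and local background was derived from it. The header cells of the deposited −log10 p and −log10 q values are not readable, and these were told apart by position. Recomputed Poisson p values came within 0.001 of the deposited −log10 p in 99.981% of 62811 WT peaks and 99.997% of 62822 dKO peaks, those with a deposited value under 250.

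Mitochondrial peaks (5 WT, 3 dKO) were left out. Peaks overlapping by 1 bp were joined, and summits were assigned to the nearest of 21900 protein-coding gene bodies of GRCm38.p6, within 100 kb. Starts, strand and promoter letters came from a RefSeq table of the same build, which holds 9 of the 10 genes, without Per2. A region's value in a list is its highest peak. Ratios use pileup over the list median and a 2-fold limit. With 1 list per genotype no test was run, and intervals cover counting error only, since reads made by PCR are not independent molecules. The joining step was checked against bedtools 2.31.1 (difference of 0 peaks) and tested on simulated data. The genes and lists were chosen with earlier results of these data known. Named are the 10 genes, those of the 25 further genes with at least 2 single-list regions or a shared region past 2-fold, and the 5 genes with counts nearest to the gene with most regions. The values of 1 gene that this rule names are not reported here. Alternatives tried were joining only at 50% overlap (shorter peak) or at summits up to 200 bp apart, peaks with q values up to 1e-05, equally long lists, genes within 20 kb, placing by region midpoint, 3 other scalings, a 1.5-fold limit and gene ends within 2 kb. A thinned WT list, leaving out Rora, and fold enrichment for the further genes were added after the data were seen. Python 3.11.15, numpy 2.4.6, pandas 2.3.3, scipy 1.17.1 and matplotlib 3.10.9 were used.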

Additional observations from a re-analysis of the deposited data

How the results depend on the processing

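The counts of WT-only and dKO-only clock gene regions stayed within 1.5 times under the other settings for joining, q, list length, gene distance and placing, with 17 to 22 WT-only and 7 to 11 dKO-only regions. With the WT list thinned to the dKO background, a setting chosen after seeing the data, they were 19 and 8, and all 19 WT-only peaks were kept. Leaving out Rora, also chosen after seeing the data, left 7 WT-only, 4 dKO-only and 0 regions 2-fold lower in dKO, as it removes 33 of 69 regions. Placing by region midpoint counted 70 regions. The median ratio of 0.854 became 0.965 when scaled to the median of shared regions and 1.06 with the deposited fold enrichment, and the median of all shared regions became 1.015 and 1.05 under the same settings, so a direction of the clock gene median depends on the scaling. With fold enrichment 2 regions were 2-fold lower and 1 was 2-fold higher, in place of 4 and 3. The lower ones were the Rora regions that begin at 69150388 and 69171192. Scaled to the median of shared regions 3 were lower and 4 higher, and scaled to the lowest local background 3 and 3. Under these scalings the ratio of 0.4995 became 0.564 and 0.504. At a 1.5-fold limit 10 were lower and 10 higher. Counts at gene ends, and the WT-only and dKO-only counts of the further clock-related genes, stayed within 1.5 times under the settings run for them. With fold enrichment, run for these genes after seeing the data, their 16 lower and 8 higher regions became 2 and 0 and their median ratio of 0.817 became 1.045. No paired analysis was possible because each genotype has 1 list and the mouse numbers differ between genotypes. Leaving out a mouse was not possible for the same reason. Peaks in the lists had a pileup of at least 14 in WT and 9 in dKO, and weaker openings cannot be seen.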

Other observations

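Summits of shared clock gene regions lay close together in the lists. In 39 of 42 regions they were within 200 bp, with a median shift of 54 bp, and the exceptions were the Per2 region at 91444821 to 91446783 (720 bp), the Rora region at 69084395 to 69085611 (563 bp) and the first Per1 region (262 bp). Of the 27 single-list regions of the clock genes 13 had a summit of the other list within 5 kb. For neither count is the share over all regions given here, so neither can be read as particular to clock genes. By −log10 q, 3 of the 19 WT-only regions, at Per1, Cry2 and Rora, and 0 of the 8 dKO-only regions were in the stronger 50% of their list. The same shares over all single-list regions are not given here, so this is not read as particular to clock genes. Median pileup was 29 at the WT-only and 17 at the dKO-only clock gene regions. Over all regions of these classes it was 34 and 18.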
